A study of Schizosaccharomyces pombe with 6 samples.

Results

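The genes described here code for the proteins of both subunits of the cytoplasmic ribosome of fission yeast (Schizosaccharomyces pombe). They were taken from the ASM294v3 annotation as the protein-coding genes whose symbol is rpl (large subunit) or rps (small subunit) followed by a digit, which gave 131 of 5113 protein-coding genes, 76 of the large and 55 of the small subunit. The stalk proteins, whose symbols start with rpp, and the ubiquitin fusion genes were left out. The series mapped the chromatin of 2 tagged SUMO ligases, Pli1-12Pk and Nse2-12Pk, by ChIP with an antibody against the Pk tag, beside an untagged strain treated with the same antibody. The 6 samples were 1 ChIP and 1 input of each of these 3 strains, grown to log phase in rich medium (YES) and mixed before crosslinking with budding yeast cells carrying Ku70-cMyc, which served as a calibrator for all 3 strains. The files are the authors' called regions of the 3 ChIP samples; every region has its bounds, a score and a summit, the point where its signal peaked.

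Ribosomal protein genes are among the most heavily transcribed genes of growing yeast cells. Many exist in fission yeast as copies at separate loci that code for nearly the same protein, while the others are present once. Their promoters commonly carry the HomolD box, which takes the place of a TATA box there, and the HomolE box. Pli1 is a SUMO ligase of the PIAS family, and Nse2 is a SUMO ligase bound to Smc5/6, a chromosome-maintenance complex with a part in DNA repair.

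Each strain had 1 ChIP library and no replicate, so no test between strains was possible and the results are counts and levels. Intervals on shares are exact (Clopper-Pearson) at 95% and cover counting error over genes only. The untagged list held 3535 peaks with a median length of 559 bp. The Pli1 list held 299 regions with a median of 28719 bp and the Nse2 list 62 regions with a median of 69235 bp. At that length nearly every gene lies within a tagged region: 130 of the 131 genes lay wholly inside a Pli1 region and 131 inside an Nse2 region. For the tagged lists a gene was therefore counted when a summit lay within 200 bp of it. Scores have no stated scale and were compared within a list only, and the sources used here state no read depth.

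The sequences below are the 250 bases before the annotated start of 3 genes of the ASM294v3 reference (RefSeq), 5′ to 3′ along the gene. They are shown because rps1001 and rpl803 had the highest untagged scores of the small and the large subunit, and rps1002 is the copy of rps1001 that no untagged peak touched. Capitals mark HomolD (CAGTCACA or its reverse complement TGTGACTG) and the core of HomolE (CCCTACCC or its reverse complement GGGTAGGG).
rps1001 (chrI:3020329-3020578, minus strand): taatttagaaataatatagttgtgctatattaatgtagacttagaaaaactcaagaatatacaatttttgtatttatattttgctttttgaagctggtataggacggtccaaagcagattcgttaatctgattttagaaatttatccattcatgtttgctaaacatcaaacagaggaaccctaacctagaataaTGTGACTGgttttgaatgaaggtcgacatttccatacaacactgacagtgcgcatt
rpl803 (chrII:601002-601251, plus strand): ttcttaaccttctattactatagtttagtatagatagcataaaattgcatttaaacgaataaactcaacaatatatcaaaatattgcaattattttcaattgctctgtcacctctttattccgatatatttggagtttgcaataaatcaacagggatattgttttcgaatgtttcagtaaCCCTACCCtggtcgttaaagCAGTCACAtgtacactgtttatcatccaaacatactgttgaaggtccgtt
rps1002 (chrII:1447753-1448002, plus strand): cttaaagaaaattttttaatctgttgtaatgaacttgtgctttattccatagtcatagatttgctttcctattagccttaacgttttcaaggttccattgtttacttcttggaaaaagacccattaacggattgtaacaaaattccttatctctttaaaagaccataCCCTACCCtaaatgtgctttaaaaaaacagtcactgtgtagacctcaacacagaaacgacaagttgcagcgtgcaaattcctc
HomolD began at -56 bp from the gene start in rps1001 and at -50 bp in rpl803. The HomolE core began at -70 bp in rpl803 and at -83 bp in rps1002, where the 8 letters of HomolD were not found in the searched window. Only exact matches were searched, and the rps1002 stretch holds cagtcact, which differs from HomolD in its last letter. The missing match therefore does not show that rps1002 lacks the box.

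The promoters of the whole group had these elements far more often than other genes. HomolD lay on either strand between 250 bp before and 50 bp after the start in 84 of 131 ribosomal protein genes (64.1%, interval 55.3 to 72.3%), against 53 of 4980 other protein-coding genes (1.06%) and 137 of 5111 overall (2.68%). Among the 84, the match nearest the start began at a median of -50.5 bp (quartiles -56.25 and -47 bp). The HomolE core was in 47 promoters (35.9%, interval 27.7 to 44.7%), against 34 of 4980 (0.683%) and 81 of 5111 overall (1.58%). TATAAA, the TATA box core, was in 34 (26.0%, interval 18.7 to 34.3%), against 2425 of 4980 (48.7%) and 2459 of 5111 overall (48.1%). Each motif was searched on its own, and none holds the letters of another. HomolD was in 50 of 76 large and 34 of 55 small subunit genes, and in 71 of 111 duplicated and 13 of 20 single genes. These letters are matches in a window and not shown to be bound sites.

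**Figure D1:**
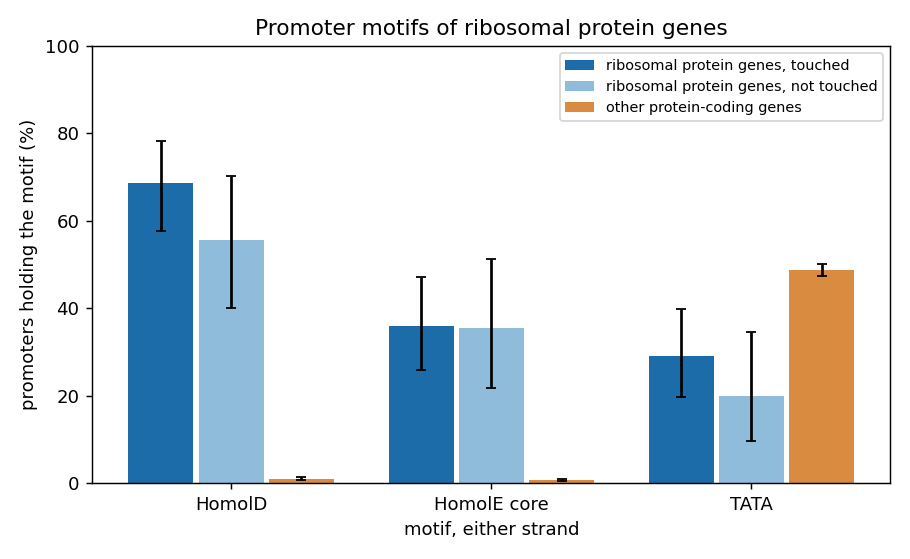
Share of promoters (250 bp before to 50 bp after the gene start) holding each motif on either strand, for ribosomal protein genes that an untagged peak touched (86) or did not touch (45) and for 4980 other protein-coding genes. Bars are shares and error bars exact 95% intervals; HomolD is in 68.6% of touched, 55.6% of untouched and 1.06% of other genes.

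Without any tag, the antibody gave called peaks on most ribosomal protein genes. An untagged peak touched 86 of 131 (65.6%, interval 56.9 to 73.7%), where 54.3% of all protein-coding genes were touched (2774 of 5113). Over genes of all lengths, the group stood further apart in score and coverage than in this count. The highest score per touched gene had a median of 398.5, from 50 at rpl901 to 1268 at rps1001, against a median of 142.5 for 2688 other touched genes. Peaks covered at least 50% of the gene at 74 of 131 members (56.5%), against 680 of all 5113 genes (13.3%). Coverage depends on gene length, with medians of 686 bp for members and 1773 bp for all genes. Among touched genes under 1 kb, the median covered share was 69.4% for members and 54.3% for others, and the median scores were 376 and 162. The touched share also stood apart at that length, with 61.7% of members and 11.2% of others. By rank, 44 of the 353 peaks in the top 10% of the untagged list touched a ribosomal protein gene (12.5%, interval 9.20 to 16.4%), against 88 of 3535 peaks overall (2.49%). The next 353 peaks held 20 and the 353 after those held 10, while the 358 lowest peaks held 1.

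The 10 genes with the highest untagged scores came from both subunits. In the small subunit these were rps1001 (score 1268), coding for eS10 near the mRNA entry site, and both copies of the uS11 gene of the platform, rps1401 (1066) and rps1402 (984). They were followed by rps001 (896), which codes for uS2, rps1201 (799) for eS12, and rps1902 (754) for eS19. In the large subunit they were rpl803 (984) and rpl802 (759), 2 of the 3 copies of the gene for uL2, a protein near the peptidyl transferase centre. The other two were rpl1802 (782), for eL18, and rpl2401 (696), for eL24, which forms a bridge between the subunits. The third uL2 copy, rpl801, had a score of 462. At the low end of the touched genes were rpl901 (50), rpl102 (65), rps2802 (78) and rps27 (91), named here after their values were seen.

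Large and small subunit genes were touched at close shares. The counts were 50 of 76 (65.8%, interval 54.0 to 76.3%) and 36 of 55 (65.5%, interval 51.4 to 77.8%), a difference of 0.33 percentage points with a 95% Newcombe interval from -15.5 to 16.7. The median score of the touched genes was 412 for the large and 351 for the small subunit, with ranges of 50 to 984 and 78 to 1268 that overlap. Duplicated genes, defined as those with another member of at least 70% protein identity, were touched at 74 of 111 (66.7%, interval 57.1 to 75.3%) and single genes at 12 of 20 (60%, interval 36.1 to 80.9%). That difference was 6.67 percentage points, with an interval from -13.7 to 29.5, which is too wide to show that the classes are alike. It was 15.5 points (interval -2.62 to 33.6) with copies defined at 90% identity and 1.76 points (interval -19.6 to 24.3) with 50% of the gene covered. Median scores of touched genes were 398.5 for duplicated and 357.5 for single genes. The highest single genes were rps2 (692), for uS5, and rps3 (690), for uS3 at the mRNA entry channel.

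**Figure D2:**
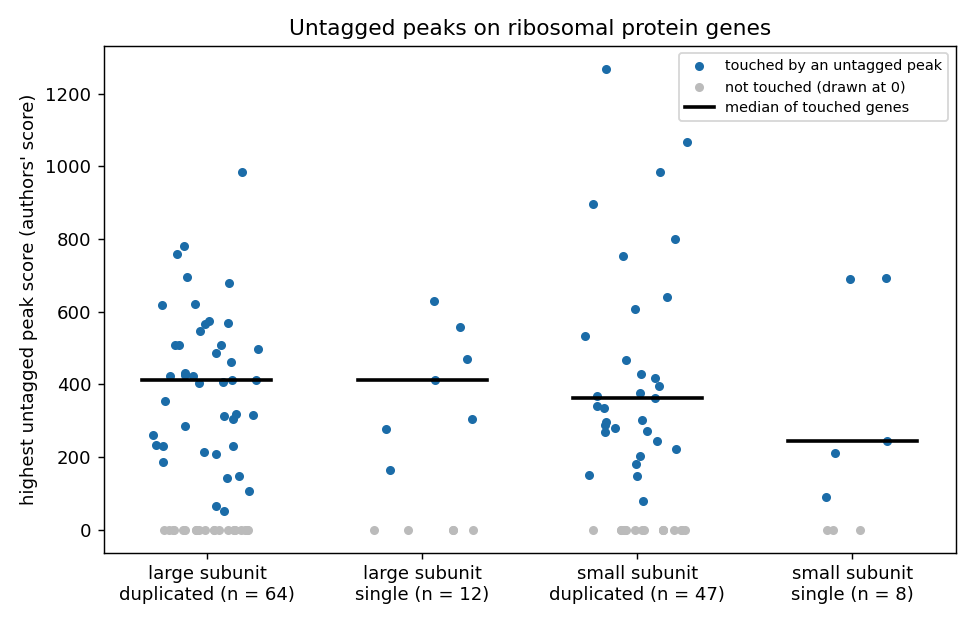
Highest untagged peak score (the authors' score) of each of the 131 ribosomal protein genes, by subunit and by whether the gene has a copy. Blue points are genes touched by an untagged peak, grey points at 0 are genes that were not touched, and black bars are medians of the touched genes (413 and 411 in the large, 363 and 244 in the small subunit, duplicated and single); the 4 ranges overlap.

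Coding length separated touched from untouched members more than subunit or copy number did. Of the 19 genes with under 300 bp of coding sequence 3 were touched (15.8%, interval 3.38 to 39.6%), and of the 46 with 300 to under 450 bp 23 were touched (50%, interval 34.9 to 65.1%). The count was 28 of 32 (87.5%, interval 71.0 to 96.5%) from 450 to under 600 bp and 32 of 34 (94.1%, interval 80.3 to 99.3%) at 600 bp or more. Other protein-coding genes were also touched more often with length, from 16 of 211 (7.58%) through 50 of 417 (12.0%) and 81 of 327 (24.8%) to 2541 of 4027 (63.1%). In the 3 upper classes the ribosomal protein genes lay above the others, with intervals that do not overlap. In the shortest class the intervals overlap. By whole gene length, 71 of 115 members under 1 kb were touched (61.7%, interval 52.2 to 70.6%), against 82 of 731 other genes of that length (11.2%, interval 9.02 to 13.7%). The coding length classes were chosen after the calls were seen.

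**Figure D3:**
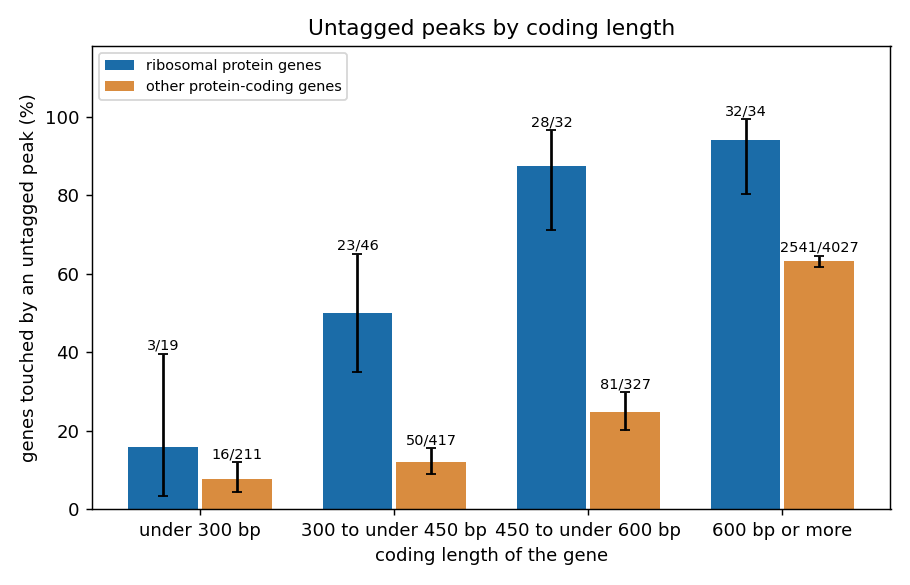
Share of genes touched by an untagged peak, by coding length, for ribosomal protein genes (blue) and other protein-coding genes (orange). Bars are shares, error bars exact 95% intervals and the numbers above them genes touched of genes in the class; the blue bars rise from 3 of 19 to 32 of 34.

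Other properties moved with length. Untouched members had a median gene length of 554 bp and a median longest exon of 353 bp, against 761.5 and 682.5 bp for touched members, and the shortest peak in the untagged list was 324 bp long. Their median GC content was 40.5%, against 44.2% for touched members. The same order held over all genes, with 35.4% for untouched and 37.9% for touched. Genes without an intron were touched at 52 of 63 (82.5%, interval 70.9 to 90.9%) and genes with one at 34 of 68 (50%, interval 37.6 to 62.4%). Other protein-coding genes had the same order, with 1557 of 2581 (60.3%) without and 1131 of 2401 (47.1%) with an intron. Over all lengths, the share of members with an intron was thus near that of other such genes. Their median coding lengths differed, at 405 bp for members and 1098 bp for the others. Within a coding length class the gap between members was smaller: 8 of 15 without and 15 of 31 with an intron from 300 to under 450 bp, 19 of 22 and 9 of 10 from 450 to under 600 bp, and 25 of 26 and 7 of 8 at 600 bp or more. In other genes the counts were 26 of 216 and 24 of 201, 44 of 156 and 37 of 171, and 1478 of 2130 and 1063 of 1897 in the same classes. Among genes with an intron, these classes had 48.4%, 90% and 87.5% of members touched, against 11.9%, 21.6% and 56.0% of others. At 600 bp or more the intervals overlap (47.3 to 99.7% and 53.8 to 58.3%). All 19 genes under 300 bp had an intron. The part of length, GC content and introns in the calls was not tested.

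The copies of a family were not always called alike. The 111 duplicated genes fell into 54 families, 51 of 2 copies and 3 of 3 copies. In the 2-copy families both copies were touched in 23, 1 in 19 and neither in 9. With 66.7% of duplicated genes touched, families with 1 copy touched would arise among unrelated genes too. Whether copies agree more or less often than unrelated members was not tested. All 3 copies were touched in each of the 3-copy families, which code for uL2 (rpl801, rpl802 and rpl803), for uL13 (rpl1601, rpl1602 and rpl1603) and for eS4 (rps401, rps402 and rps403). The families with neither copy touched had short coding sequences of 78 to 393 bp (median 273 bp), where those with both touched had 405 to 1167 bp (median 571.5 bp). Protein identity between copies was alike in the families with both, 1 and neither copy touched (medians 98.7%, 96.9% and 96.6%).

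The pair that differed most was rps1001 (score 1268) and rps1002, which was not touched and whose nearest untagged summit was 1015 bp away. Their proteins are 93.9% identical, and their genes are 1003 and 542 bp long. The next pairs with 1 copy touched were rps1201 (799) and rps1202, rps1902 (754) and rps1901, and rpl2401 (696) and rpl2402. They were followed by rps802 (532) and rps801, which code for eS8, and rpl4301 (508) and rpl4302, which code for eL43. The nearest untagged summit to the untouched copy lay between 346 bp (rpl4302) and 3020 bp (rps1202) away in these 5 pairs. Among the 19 families with 1 copy touched, the touched copy was the longer gene in 10 and had the higher GC content in 13. Where both copies were touched, the higher score was a median of 1.47 times the lower, from 1.01 times (rpl402 and rpl401) to 2.82 times (rpl902 and rpl901).

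**Figure D4:**
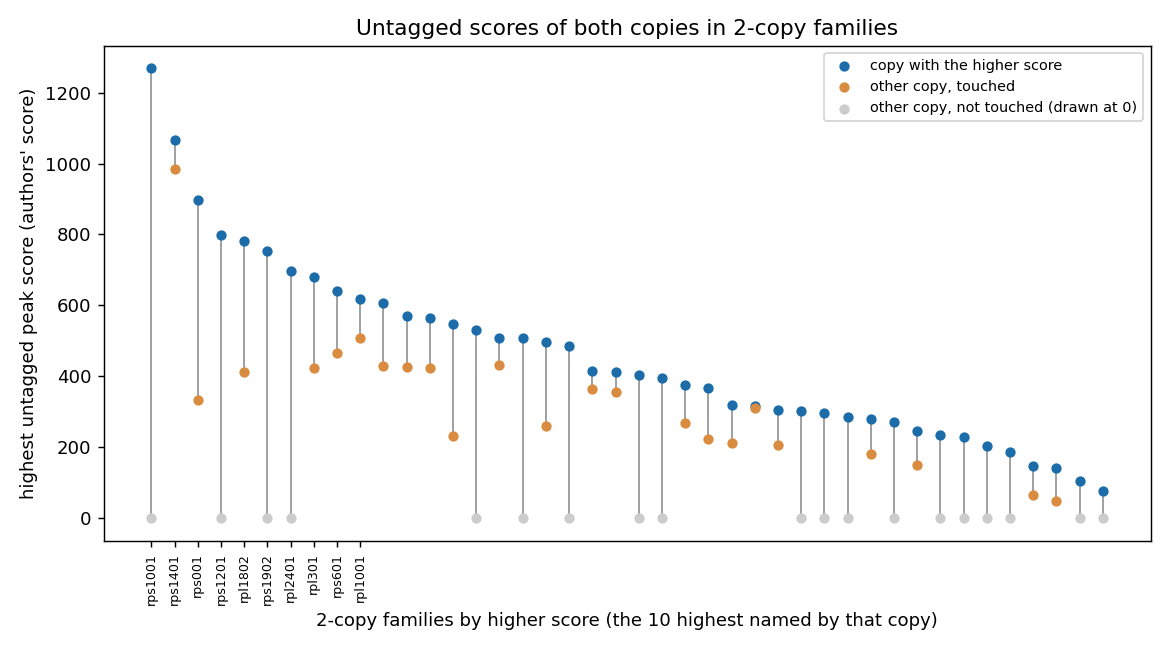
Highest untagged peak score of both copies in the 42 families of 2 copies with at least 1 copy touched, ordered by the higher score, with the 10 highest named. Blue points are the copy with the higher score, orange points the other copy where it was touched, and grey points at 0 the other copy where it was not (19 families); grey lines join the copies.

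The lists rest on uniquely mapped reads, per the file headers, so the repeated sequence of the members is given here. Only 8 members had 10% or more of their 50-base stretches repeated elsewhere in the genome, among them both copies of rpl3, rpl10 and rpl12 (rpl301 and rpl302, rpl1001 and rpl1002, rpl1201 and rpl1202). All 8 were touched, with scores from 423 (rpl302) to 679 (rpl301). The largest repeated share was 85.1%, in rpl1201 (565). Among the 45 untouched members the largest was 5.46%, in rpl3702. Without the 8, duplicated genes were touched at 66 of 103 (64.1%). The part of repeated sequence in the calls was not tested.

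Untagged summits lay in the coding sequence. Of the 88 peaks that touched a member, 88 had their summit within the gene, 85 in coding sequence, 2 in an intron and 1 in a UTR. Taking the highest peak of each touched gene, 84 of 86 were in coding sequence (97.7%), against 2468 of 2688 other genes (91.8%). The summits were not at a fixed end of the gene: 48 of 86 lay past the midpoint. The median summit was 57 bp to the higher coordinates from the gene's midpoint in 49 plus-strand members and 62 bp to the higher coordinates in 37 minus-strand members. The quartiles were -30 and 111.5 bp on the plus strand and -45 and 243 bp on the minus strand. Past the midpoint lay 35 of 49 plus-strand summits (71.4%, interval 56.7 to 83.4%) and 13 of 37 minus-strand summits (35.1%, interval 20.2 to 52.5%), so the shift on the minus strand was within counting error. In other genes the medians were 121 bp to the higher side on the plus strand and 10.5 bp to the lower side on the minus strand. What sets these offsets was not tested, and no 5′ or 3′ preference is read from untagged summits here.

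In the Pli1-12Pk strain, 32 ribosomal protein genes had a Pli1 summit within 200 bp (24.4%, interval 17.3 to 32.7%), where 4.6% of all protein-coding genes had one (235 of 5113). Seen from the regions, 78 of 299 Pli1 regions touched a member, and in 32 of them (41.0%, interval 30.0 to 52.7%) the summit lay at a member. Those 78 regions held a median of 23 protein-coding genes, and the members with their 200 bp margins made up 2.42% of the regions' length. A region has 1 summit, so a gene without one may only lie beside a higher signal. The summits near members had scores of 1723 to 4054, in a list that ran from 85 to 28692 with a median of 2537. The genes nearest to the limit were rpl3001 (189 bp) and rps2602 (174 bp) inside it, and rps3002 (213 bp), rps1502 (223 bp) and rpl901 (241 bp) outside it.

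Pli1 summits showed no difference between subunits or between copies and single genes beyond counting error. They were at 18 of 76 large (23.7%, interval 14.7 to 34.8%) and 14 of 55 small subunit genes (25.5%, interval 14.7 to 39.0%), and at 26 of 111 duplicated (23.4%, interval 15.9 to 32.4%) and 6 of 20 single genes (30.0%, interval 11.9 to 54.3%). The differences were -1.77 percentage points (interval -17.0 to 12.6) for large minus small and -6.58 (interval -29.5 to 11.1) for duplicated minus single. Unlike the untagged calls, they did not rise from class to class with coding length, with 5 of 19, 12 of 46, 5 of 32 and 10 of 34 from the shortest class to the longest. Other protein-coding genes had 1.42%, 2.40%, 5.20% and 4.296% in these classes. Of the 54 families, 3 had Pli1 summits at both of 2 copies: rpl1001 and rpl1002, rpl2101 and rpl2102, and rps1401 and rps1402. Among 2-copy families, 18 had a summit at 1 copy and 30 at neither. With 23.4% of duplicated genes at a Pli1 summit, some families with both would arise among unrelated genes too. Agreement between copies was not tested.

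Most Pli1 summits at members lay in untagged peaks, 24 of 32 (75%, interval 56.6 to 88.5%), against 144 of 267 elsewhere (53.9%, interval 47.8 to 60.03%). These intervals overlap only from 56.6 to 60.03%, which does not show that the shares are alike. No interval of this difference was computed. An untagged peak touches 65.6% of the members in any case. The highest Pli1 scores among the 24 were at rpl8 (4054), which codes for eL8, at rps2602 (3836), for eS26, where the summit lay 174 bp past the gene's end inside the neighbour SPAC1805.10, and at rps3 (3595). They were followed by rps1401 (3546), rps1001 (3461), rpl1001 (3410) and rpl1002 (3122), which code for the L10 protein that joins the large subunit late in assembly, rps002 (3068), rpl1802 (3002) and rps2402 (2998). In the 22 genes whose Pli1 summit was inside both the gene and an untagged peak, the distance from the highest untagged summit was a median of 26 bp, from 0 to 525 bp. Pli1 summits were at 24 of the 86 touched members (27.9%, interval 18.8 to 38.6%) and 8 of the 45 untouched ones (17.8%, interval 8.002 to 32.1%), intervals that overlap.

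The 8 members with a Pli1 summit outside untagged peaks (6.11%, interval 2.67 to 11.7%) compare with 1.41% of all protein-coding genes (72 of 5113). Their genes were 380 to 799 bp long, where the 45 untouched members, from which all 8 come, had a median of 554 bp. All 8 had an intron, as had 34 of the 45. Of these, 5 are in the large subunit: rpl2302 (Pli1 score 2711), rpl31 (2609), rpl39 (2396), rpl29 (2148) and rpl3703 (1723). The L31 and L39 proteins lie at the exit of the tunnel for the new chain. The small subunit had rps29 (3494), for uS14, rps2202 (3220), for uS8, and rps2502 (2676), for eS25. The summit lay inside the coding sequence in 6 of them, and 100 bp past the end of rpl39 and 113 bp past the end of rps29. Single genes were 4 of the 8 (rpl29, rpl31, rpl39 and rps29). That is 4 of 20 single genes (20%, interval 5.73 to 43.7%), against 4 of 111 duplicated genes (3.60%, interval 0.990 to 8.97%), and these intervals overlap. By subunit the shares were 5 of 76 large (6.58%) and 3 of 55 small subunit genes (5.45%). The summit past rps29 lies in the 441 bp between rps29 and rps27, another member on the same strand, and 329 bp from rps27.

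Pli1 summits inside members lay past the gene's midpoint more often than not, at 24 of 28 (85.7%, interval 67.3 to 96.0%), against 133 of 184 in other genes (72.3%, interval 65.2 to 78.6%). They did so at 19 of 19 plus-strand members and 5 of 9 minus-strand members, beside 81 of 105 and 52 of 79 for other genes. The median lay 109 bp past the midpoint on the plus strand and 3 bp past it on the minus strand. The interval for the 5 of 9 ran from 21.2 to 86.3%, so the members' pooled share rests on the plus strand. No 5′ or 3′ preference of members is read from it.

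**Figure D5:**
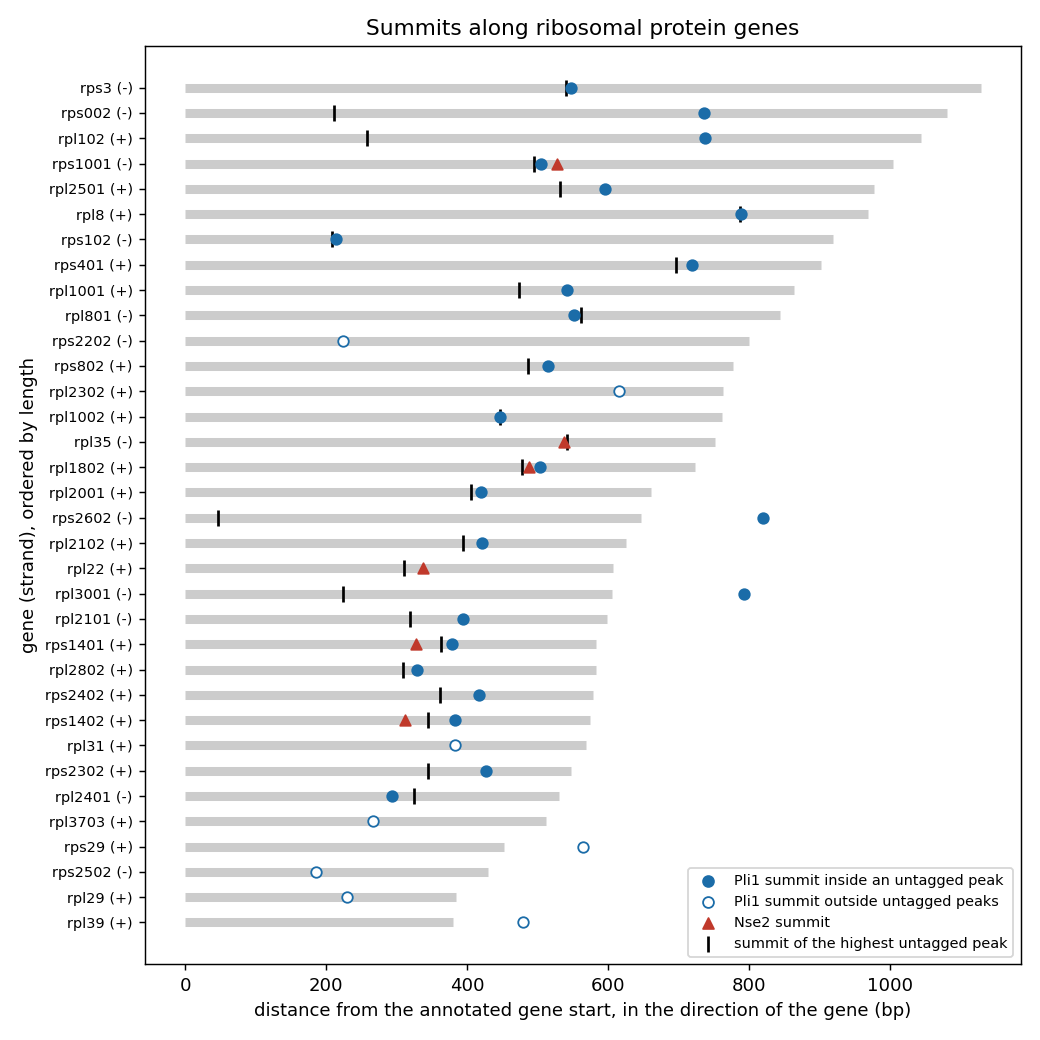
Summits along the 34 ribosomal protein genes with a Pli1 or Nse2 summit within 200 bp, as distance from the annotated gene start in the direction of the gene. Grey bars are the genes (strand in brackets), circles Pli1 summits (filled inside an untagged peak, open outside), triangles Nse2 summits and ticks the summit of the highest untagged peak; at rpl1802, rps1001, rps1401 and rps1402 all 3 kinds of summit lie close together.

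In the Nse2-12Pk strain, 6 members had an Nse2 summit within 200 bp (4.58%, interval 1.70 to 9.70%), where 0.821% of all protein-coding genes had one (42 of 5113). They were rps1001 (Nse2 score 12395), rps1401 (12165), rps1402 (9893), rpl1802 (8774), rpl22 (7736), which codes for eL22, and rpl35 (5862), which codes for a protein at the tunnel exit. All 6 summits were in coding sequence and inside an untagged peak. Elsewhere 35 of 56 Nse2 summits were inside an untagged peak (62.5%, interval 48.5 to 75.1%). The interval for the 6 of 6 ran from 54.1 to 100%, so the 2 overlap. Of the Nse2 summits within 200 bp of other protein-coding genes, 32 of 37 were in coding sequence (86.5%). The Nse2 list has a median score of 11305, so 2 of the 6 lie above it. By region, 31 of 62 Nse2 regions touched a member and 6 of these had their summit at one (19.4%, interval 7.45 to 37.5%). These 31 regions held a median of 86 protein-coding genes, and members with their margins made up 1.26% of their length. The subunits had 3 of 76 and 3 of 55, and the classes 4 of 111 duplicated and 2 of 20 single genes. When the 86 touched members were ordered by untagged score, the upper 43 had 4 Nse2 and 13 Pli1 summits (Pli1 30.2%, interval 17.2 to 46.1%) and the lower 43 had 2 and 11 (Pli1 25.6%, interval 13.5 to 41.2%), and the Pli1 intervals overlap. The 10 highest had 4 Nse2 and 5 Pli1 summits (Pli1 50%, interval 18.7 to 81.3%).

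At 4 genes the summits of all 3 lists lay within a short stretch. The Pli1 and Nse2 summits were 15 bp apart at rpl1802, 23 bp at rps1001, 52 bp at rps1401 and 71 bp at rps1402, and the untagged summit was 9 to 39 bp from the Pli1 summit. At rpl22 and rpl35 the nearest Pli1 summit was 40527 and 13650 bp from the gene. The stretches below, 150 bases of coding sequence and its surroundings read along the gene, show where the 3 lists met. Capitals mark the 3 summit bases.
rpl1802 (chrI:1286029-1286178, plus strand): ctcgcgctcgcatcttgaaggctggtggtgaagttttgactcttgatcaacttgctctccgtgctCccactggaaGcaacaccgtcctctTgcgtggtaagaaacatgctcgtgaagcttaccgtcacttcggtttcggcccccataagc
rps1001 (chrI:3019749-3019898, minus strand): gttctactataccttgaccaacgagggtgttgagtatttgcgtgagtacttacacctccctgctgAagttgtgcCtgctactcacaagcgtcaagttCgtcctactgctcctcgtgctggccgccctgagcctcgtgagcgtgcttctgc
rps1401 (chrI:3436532-3436681, plus strand): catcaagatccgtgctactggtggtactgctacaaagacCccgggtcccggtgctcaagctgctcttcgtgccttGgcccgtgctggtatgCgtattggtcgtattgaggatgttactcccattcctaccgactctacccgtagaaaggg
rps1402 (chrII:1792632-1792781, plus strand): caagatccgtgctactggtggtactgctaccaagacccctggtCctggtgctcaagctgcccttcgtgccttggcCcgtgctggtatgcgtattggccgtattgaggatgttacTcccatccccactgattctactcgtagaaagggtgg
Counted from the first base shown, the untagged, Pli1 and Nse2 summits are bases 66, 91 and 76 of rpl1802, 66, 75 and 98 of rps1001, 76, 92 and 40 of rps1401, and 76, 115 and 44 of rps1402. The GC content of the stretches was 54.0%, 54.7%, 55.3% and 56.0% in the same order. At rpl1802 and rps1401 a gene on the other strand, SPAPB17E12.14C and aar2, also covers the Pli1 and Nse2 summits. These summits cannot be given to 1 gene. The proteins of rps1401 and rps1402 are 100% identical, and 9.76% and 9.90% of their 50-base stretches are repeated in the genome.

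Promoter motifs were also counted in members with and without calls. HomolD was in 59 of 86 touched members (68.6%, interval 57.7 to 78.2%) and 25 of 45 untouched members (55.6%, interval 39.997 to 70.4%), and the HomolE core in 31 of 86 (36.05%) and 16 of 45 (35.6%). HomolD was in 21 of 32 members with a Pli1 summit (65.6%, interval 46.8 to 81.4%) and in 63 of 99 without (63.6%, interval 53.4 to 73.1%). The HomolE core was in 13 of 32 (40.6%) and 34 of 99 (34.3%) of these. TATAAA was in 25 of 86 touched (29.1%, interval 19.8 to 39.9%) and 9 of 45 untouched members (20%, interval 9.58 to 34.6%). By Pli1 summit, TATAAA was in 5 of 32 with (15.6%, interval 5.28 to 32.8%) and 29 of 99 without (29.3%, interval 20.6 to 39.3%). In each of these comparisons the intervals overlap, which does not show that the shares are alike.

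Beside these genes stand 2 related groups of the translation machinery. Of the 7 stalk protein genes 1 was touched by an untagged peak, 1 had a Pli1 summit and 2 had an Nse2 summit. The touched stalk gene had a score of 1636, above the highest score among the ribosomal protein genes (1268). Of the 7 translation elongation factor genes 7 were touched, with a median highest score of 635, and 5 had a Pli1 and 3 an Nse2 summit. With 7 genes in each group, the exact intervals for the touched share ran from 0.361 to 57.9% and from 59.0 to 100%. Both overlap the interval of the ribosomal protein genes. The median coding length was 333 bp in the stalk genes and 1383 bp in the elongation factor genes, and members of like coding length were touched at 50% and 94.1%. The touched stalk gene itself had 600 bp or more of coding sequence, so the median of 333 bp does not describe it.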

How the data were processed

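The series holds peak lists of anti-Pk ChIP-seq of 3 fission yeast strains (untagged, Pli1-12Pk and Nse2-12Pk), 1 library each. Per the labels, ChIP over input was normalised to a budding yeast calibrator. Cutadapt, Bowtie2, SAMtools and MACS3 are listed without versions in the submitters' processing notes, as is sacCer3, the build of the calibrator. The lists rest on uniquely mapped S. pombe reads and a p-value track, per the file headers. Each region carries a score deposited by the authors on an unstated scale, and the summit position is its other value used. The 3 remaining value columns (fold enrichment, p and q) are 0 throughout. Sequence names and versions match the ASM294v3 reference, whose genome and annotation were used, with positions counted from 1. The sources used here state no read depth. The 3 inputs were not analysed here on their own.

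An untagged peak touched a gene when they shared at least 1 bp. A tagged region was assigned to a gene by a summit within 200 bp. Proteins translated from the reference were aligned pairwise (BLOSUM62, gap opening -11, extension -1) with Biopython 1.88, and identity was taken over the longer protein. Counts used Python 3.11.15, NumPy 2.4.6 and SciPy 1.17.1, and figures Matplotlib 3.10.9. On simulated lists over 5113 genes, the overlap code found 200 of 200 planted peaks. Genes named were those with an Nse2 summit, those with a Pli1 summit outside untagged peaks, the 10 highest by untagged score, the 10 highest by Pli1 score inside untagged peaks, and the 6 highest pairs with 1 copy touched. Members and lists were chosen with earlier results of these data known, and coding length, GC content, introns and summit offsets were added after the values were seen. Alternatives changed the overlap rule, the score limit, the gene bounds, the window, the definition of a copy and the member rule.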

Additional observations from a re-analysis of the deposited data

How the results depend on the processing

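Of 47 alternative values for 9 results, 45 stayed within 1.5 times the count or within the 95% interval of the value in the report. The count of members touched by an untagged peak was 74 with 50% of the gene covered, 82 with scores of at least 100 and 90 with genes extended by 200 bp. The share of all protein-coding genes moved more, to 13.3%, 38.1% and 56.5%, so the distance between members and all genes depends on the rule. With tagged scores at or above the list median, members with an Nse2 summit fell from 6 to 2 and Pli1 summits outside untagged peaks from 8 to 5, since fewer regions remain. The difference in Pli1 share between duplicated and single genes was -6.58 percentage points and changed sign to 1.62 with summits inside the gene or within 50 bp, and to 2.14 with copies defined at 90% identity, inside its interval throughout. For large minus small subunit, the untagged difference changed sign to -0.67 with extended genes. No paired analysis was possible because each strain has 1 ChIP library. The lists do not give depth, so a gene without a peak was not called at an unknown depth, which does not show that signal was absent.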

Other observations

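Several ribosomal protein genes lie side by side, and their calls differed within short distances. Of 7 neighbouring pairs with under 1000 bp between them, rpl701 was not touched while rps1402 (score 984) starts 67 bp away on the other strand, and rpl2701 was not touched 110 bp from rps001 (896). The gene rps1602 was not touched and its neighbour rpl13 (470) starts 102 bp away. At rps2 (692) and rps20 (244), 490 bp apart, at rpl35 (276) and rpl902 (141), 203 bp apart, and at rps403 (339) and rpl2102 (498), 289 bp apart, both genes were touched. The seventh pair, rps29 and rps27 (91), is described above.

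By chromosome, an untagged peak touched 37 of 58 members on chromosome I, 32 of 48 on II and 17 of 25 on III, where 51.4%, 55.7% and 58.5% of all protein-coding genes on these chromosomes were touched. A Pli1 summit lay at 17, 12 and 3 members, where 5.19%, 4.24% and 3.83% of all protein-coding genes had one. The exact intervals of the members' shares overlap between the chromosomes.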
